A study of Homo sapiens with 4 samples.

Results

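Cholesterol and fatty acid synthesis was followed through 36 genes controlled by the sterol regulatory element-binding proteins (SREBPs), 24 of the sterol arm and 12 of the fatty acid arm. They were chosen by symbol, and every probe set annotated to 1 of these symbols alone was taken. This gave 72 probe sets for 32 genes, 22 sterol and 10 fatty acid genes, out of 12264 genes measured above a low-signal limit. FDFT1, CYP51A1, FADS1 and ACSL3 had no probe set of their own among those named here (2 probe sets of CYP51A1 and 3 of FADS1 also carry another symbol), and they were not analysed here. A filter on low signal kept 61 probe sets and all 32 measured genes. The 11 probe sets left out, from 8 genes, read between 2.97 and 121 on all arrays.

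The cells were T84, an established line from a human colorectal carcinoma that can grow as a polarised epithelium, seeded at 500000 per well on permeable filters of 24 mm diameter with 0.4 µm pores and transfected with 15 pmol of oligonucleotides. RNA for the 4-miRNA array came from cells that received oligonucleotides for miR-33a, miR-451, miR-338-3p and miR-210 and were harvested on day 5. For the 2-miRNA array the oligonucleotides were those for miR-451 and miR-338-3p, with harvest also on day 5. Cells of the day 7 control and the day 5 control were given a short RNA with minimal likeness to human miRNAs. Each group was 1 Affymetrix U133 Plus 2.0 array of 1 cell line, so samples could not be tested against each other and all values are descriptions whose precision is limited by the number of arrays.

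Animal cells make cholesterol from acetyl-CoA through mevalonate, farnesyl diphosphate, squalene and lanosterol, and they make long-chain fatty acids from the same acetyl-CoA. The genes of both routes are switched on by SREBPs, transcription factors held in the endoplasmic reticulum as precursors. When membrane sterols are low, SCAP escorts the precursors to the Golgi, where proteases release the active part, and when sterols are high, INSIG proteins retain SCAP in the endoplasmic reticulum. The product of SREBF2 acts mainly on sterol genes and that of SREBF1 on fatty acid genes, and INSIG1 is itself one of the targets.

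SREBF2 also hosts one of the transfected miRNAs, which is why the miRNA sequences are shown first. In RefSeq on GRCh38.p14 the hairpin of MIR33A lies at chr22:41900944-41901012 on the plus strand, inside SREBF2 at chr22:41833105-41907305. The labels name the 3p arm for miR-338 alone, and for the other miRNAs the arm shown is the one usually meant by the bare name. Capitals mark the seed, bases 2 to 8, which pairs with target messenger RNAs, and no seed was shared among the sequences matched in RefSeq. miR-451 is named only.
miR-338-3p: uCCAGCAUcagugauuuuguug
miR-33a-5p: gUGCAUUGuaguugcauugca
miR-210-3p: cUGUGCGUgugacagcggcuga

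The miRNA arrays were brighter as deposited, with trimmed mean signals of 150 (4 miRNAs) and 147 (2 miRNAs), against 74.3 (day 7) and 76.6 (day 5) for the controls, so brightness and miRNA treatment cannot be told apart. All arrays were therefore set to the same trimmed mean, 500. The brightest probe sets did not follow that factor. The 3′ probe set of GAPDH read 13461 and 14071 as deposited with 4 and 2 miRNAs, against 14259 and 12949 in the day 7 and day 5 controls. Once scaled it read 44868 and 47742 on the miRNA arrays, against 95935 and 84506 on the controls. For this reason differences are also given, where they matter, after centring on a running median taken along the signal range of an array. The 3′ to 5′ signal ratio of GAPDH, a measure of RNA integrity, was between 0.951 and 1.02 on all 4 arrays and that of ACTB between 1.97 and 2.33. All 13 colon epithelium markers were at or above the array median on all 4 arrays, with summed signals between 204941 and 277704. Of the markers for other cells, 3 of 7 for fibroblasts, 1 of 3 measured for leukocytes and 1 of 4 for endothelium passed the signal filter. Their summed signals were 434 and 536 on the 4-miRNA and 2-miRNA arrays, against 761 and 804 on the day 7 and day 5 controls, for fibroblasts, and between 170 and 367 on any array for the other types. The part of these cells and of brightness in the results was not tested.

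All signals named from here on are scaled ones. A difference is taken between log2 values after adding 32 to the signal, which understates the differences of dim genes. A gene is called at least 2-fold apart at an absolute difference of 1 or more. The probe set with the highest mean stands for its gene unless another is named. Probe sets of the same gene gave the error. A pair of bright probe sets was compared for each of 2625 genes. The SD of the part of a difference that the pair did not share was 0.58 in each miRNA array against the day 5 control. It was 0.18 between the miRNA arrays and 0.27 between the controls. This is called the SD of a single probe set below, and it leaves out the part that probe sets of a gene share. Differences between cultures of one kind were not measured and are not in this SD.

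**Figure D1:**
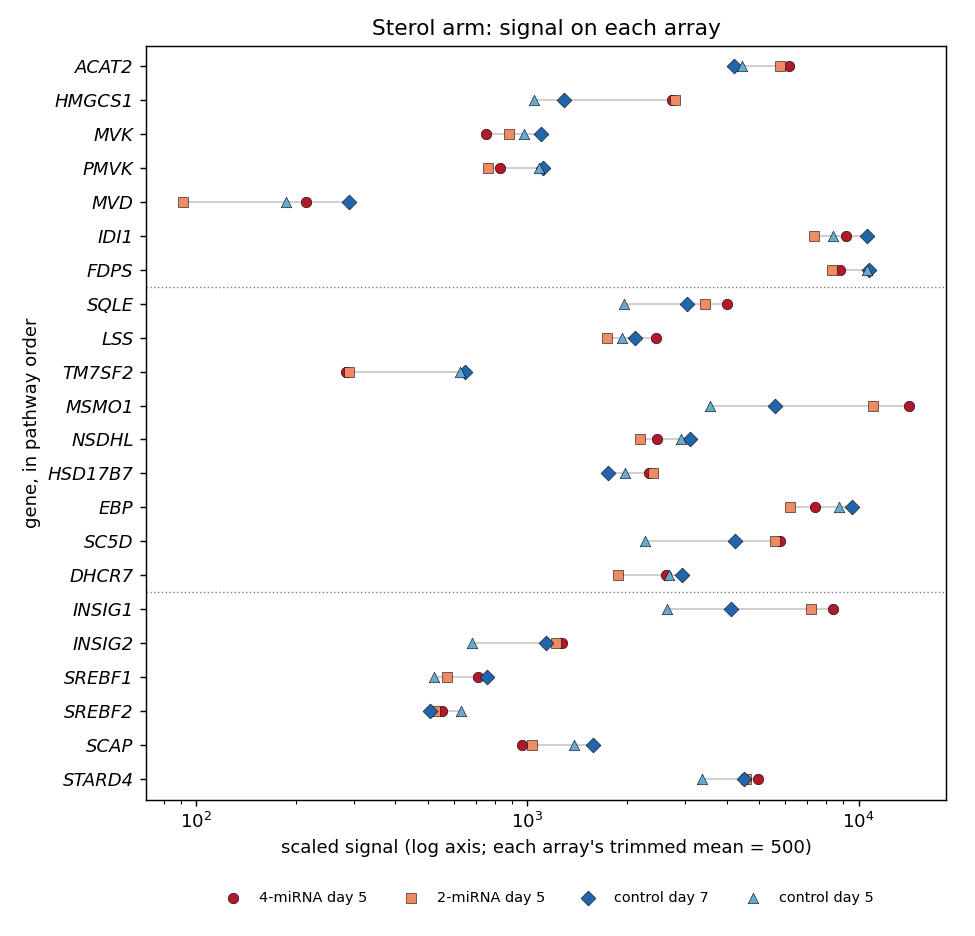
Scaled signal (log axis) of the 22 measured sterol arm genes on each of the 4 arrays, 1 point per array, with a grey line from the lowest to the highest array and dotted lines between mevalonate enzymes, later enzymes and regulators. On the probe sets shown, MSMO1, SC5D, INSIG1 and HMGCS1 are among the genes higher on both miRNA arrays than on both controls, and TM7SF2 is among those lower. Other probe sets of INSIG1 and HMGCS1 do not all show this order.

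Within the sterol arm, MSMO1, SC5D and INSIG1 were more than 2-fold higher on both miRNA arrays than in the day 5 control on their brightest probe sets, and TM7SF2 was just over 2-fold lower, while most other enzymes stayed within 2-fold. Against the day 5 control, 13 of 22 genes lay above 0 on the 4-miRNA array with a median difference of 0.20, and 10 of 22 lay above 0 on the 2-miRNA array with a median of −0.15. The median over all 12264 genes was −0.15 and −0.16 in the same comparisons, and 41.0% and 40.6% of them lay above 0. Genes at least 2-fold higher numbered 5 with 4 miRNAs and 4 with 2 miRNAs, which is 22.7% and 18.2% of the arm, where 8.03% and 8.11% of all genes passed that limit and 14.7% and 14.5% were past it in either direction. These counts include HMGCS1, whose probe sets disagree, and with 4 miRNAs SQLE, which passed on 1 of 4 probe sets. With the median over probe sets HMGCS1 (0.57 with either mix), SQLE with 4 miRNAs (0.48) and INSIG1 with 2 miRNAs (0.94) were within 2-fold. TM7SF2 alone was at least 2-fold lower on either array (4.55% of the arm, where 6.7% and 6.37% of all genes were). The sterol median on the 2-miRNA array is not a stable value, since it was 0.12 when the median over probe sets stood for each gene.

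The mevalonate enzymes carry acetyl-CoA to farnesyl diphosphate, and HMGCS1, the synthase that makes HMG-CoA, was the member of this stretch furthest apart. Its brighter probe set, 221750_at, read 2744 with 4 miRNAs and 2786 with 2 miRNAs, against 1294 in the day 7 control and 1045 in the day 5 control. Here both miRNA arrays were above both controls, by 1.37 and 1.39 against day 5. The dimmer probe set, 205822_s_at, read 640.1 with 4 miRNAs and 629 with 2 miRNAs, against 768 in the day 7 control and 755 in the day 5 control, with both miRNA arrays below both controls and differences of −0.23 and −0.25 from day 5. The probe sets of HMGCS1 therefore disagree in direction, and no direction is given for the gene.

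The other enzymes of this stretch stayed within 2-fold of the day 5 control on both miRNA arrays. ACAT2, the cytosolic thiolase that joins acetyl-CoA units, read 6167 with 4 miRNAs and 5779 with 2 miRNAs, against 4208 in the day 7 control and 4461 in the day 5 control, with both miRNA arrays above both controls. Its differences from day 5, on 1 probe set, were 0.46 and 0.37 with 4 and 2 miRNAs. Differences from day 5 for the phosphorylating enzyme PMVK, on 1 probe set, were −0.38 and −0.50 with 4 and 2 miRNAs. For FDPS, the farnesyl diphosphate synthase, they were −0.27 and −0.35. FDPS and PMVK were thus below day 5 on both miRNA arrays by less than the SD of a single probe set, and ACAT2 was above day 5 by less than that SD. IDI1, the isopentenyl diphosphate isomerase, was bright on 2 probe sets: 208881_x_at read 9159.6 with 4 miRNAs and 7360.0 with 2 miRNAs, against 10641 in the day 7 control and 8388 in the day 5 control. The groups overlap there, as they do for the second bright probe set, 204615_x_at, at 8866 with 4 miRNAs and 7239.7 with 2 miRNAs, against 8456 in the day 7 control and 7010.2 in the day 5 control. Of the 2 dimmer IDI1 probe sets, 242065_x_at differed from day 5 by 0.05 and 0.18 with 4 and 2 miRNAs. The other, 233014_at, read 92.1 with 4 miRNAs and 178 with 2 miRNAs, against 136 in the day 7 control and 79.3 in the day 5 control. Its day 5 signal was under the array median, so no difference is given for it. MVK, the mevalonate kinase, gave differences of −0.37 and −0.15 with 4 and 2 miRNAs on its brightest probe set, but 0.67 and 0.15 on 204056_s_at and 0.34 and 0.13 on 215649_s_at.

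MVD, the decarboxylase that yields isopentenyl diphosphate, was dim and had 1 probe set. It read 215 with 4 miRNAs and 91.1 with 2 miRNAs, against 290.1 in the day 7 control and 187 in the day 5 control. The 2-miRNA array was the lowest of the 4, near its array median of 87.3, and the 4-miRNA array lay between the controls. The difference of the 4-miRNA array from the 2-miRNA array was 1.003, ranked 125 from the highest of 12264 genes, and MVD was the single member at least 2-fold apart between the miRNA arrays (3.12% of the 32 members, where 1.04% of all genes were at least 2-fold higher, 1.33% lower and 2.37% either). With 64 in place of 32 added before taking logs it fell under that limit.

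Among the enzymes from squalene to cholesterol, MSMO1, the methylsterol oxidase that removes methyl groups from the sterol ring, was furthest from the controls. Its single probe set read 14244 with 4 miRNAs and 11057 with 2 miRNAs, against 5609 in the day 7 control and 3552 in the day 5 control. Both miRNA arrays exceeded both controls, and the day 7 control exceeded day 5. The differences from day 5 were 1.99 with 4 miRNAs, rank 143 of 12264, 1.63 with 2 miRNAs, rank 349, and 0.65 for the day 7 control. Against the day 7 control they were 1.34 and 0.98.

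SC5D, the lathosterol desaturase, followed, at 5783 with 4 miRNAs and 5582 with 2 miRNAs, against 4244 in the day 7 control and 2259.8 in the day 5 control. Here the day 7 control was nearer to the miRNA arrays than to day 5. Differences from day 5 were 1.34 and 1.29 with 4 and 2 miRNAs and 0.90 on day 7, and differences from day 7 were 0.44 and 0.39. SC5D rests on 1 probe set above the filter.

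SQLE is the squalene epoxidase, and its brightest probe set read 3996 with 4 miRNAs and 3443 with 2 miRNAs, against 3029 in the day 7 control and 1957 in the day 5 control. The other 3 arrays were all above day 5 there, by 1.02 and 0.81 with 4 and 2 miRNAs and 0.62 on day 7. Its probe set 213562_s_at gave 0.84, 0.92 and 0.89 in the same order. Another probe set, 213577_at, gave 0.12, −0.34 and 0.08, and the dim 1557352_at gave −0.27, 0.20 and 0.25. The signal of 1557352_at was under the array median on the 4-miRNA array and in the day 5 control, which limits its values. SQLE passed the 2-fold limit on the 4-miRNA array on its brightest probe set alone, and missed it there after quantile normalization (0.96).

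TM7SF2, a sterol reductase of the C14 double bond, was on the other side. Its single probe set read 284 with 4 miRNAs and 289 with 2 miRNAs, against 649.6 in the day 7 control and 629 in the day 5 control. The miRNA arrays lay well below the controls, which were nearly equal to each other. Differences were −1.06 and −1.04 from day 5 and −1.11 and −1.09 from day 7, with 4 and 2 miRNAs. After running-median centring they were −0.98 and −0.95 from day 5, and with 64 added −0.99 and −0.97, just inside 2-fold.

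The remaining enzymes of the cholesterol stretch were within 2-fold of day 5 on the probe set that stood for them. LSS, the lanosterol synthase, differed by 0.33 and −0.15 with 4 and 2 miRNAs, and HSD17B7, the 3-ketosterol reductase, by 0.24 and 0.28. EBP, the sterol isomerase, differed by −0.24 and −0.49 on its brightest probe set, but by 0.13 and −0.07 on the nearly as bright 202735_at and by 0.41 and 0.23 on the dimmer 213789_at. Its remaining probe set, 231320_at, was under the array median in the day 5 control and is not compared. DHCR7, which completes cholesterol, differed by −0.03 and −0.50 on its brightest probe set and by 0.16 and −0.11 on the similarly bright 201791_s_at. No direction is given for EBP, nor for DHCR7 with 4 miRNAs, whose first value was 0.03 after running-median centring. NSDHL, the sterol dehydrogenase, had 2 bright probe sets that disagreed: −0.23 and −0.40 on 209279_s_at, and 0.94 and 0.79 on 215093_at.

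Of the regulators, INSIG1 had the best support, with 3 probe sets that lay in the same direction. The brightest, 201626_at, read 8363 with 4 miRNAs and 7175 with 2 miRNAs, against 4129 in the day 7 control and 2643 in the day 5 control. The second, 201627_s_at, read 2710.1 with 4 miRNAs and 2352 with 2 miRNAs, against 2285 in the day 7 control and 1152 in the day 5 control. The dimmest of them, 201625_s_at, read 2896 with 4 miRNAs and 1774 with 2 miRNAs, against 2082 in the day 7 control and 1209 in the day 5 control. On all 3 probe sets the order had day 5 lowest and the 4-miRNA array highest. Differences from day 5 on the 3 probe sets, in the order above, were 1.65, 1.21 and 1.24 with 4 miRNAs, 1.43, 1.01 and 0.54 with 2 miRNAs, and 0.64, 0.97 and 0.77 on day 7. Against the day 7 control the miRNA arrays differed by 1.01 and 0.79 on the brightest, 0.24 and 0.04 on 201627_s_at and 0.47 and −0.23 on 201625_s_at.

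INSIG2, the second retention protein, read 1274 with 4 miRNAs and 1219 with 2 miRNAs, against 1141 in the day 7 control and 681 in the day 5 control, so that the day 5 control stood apart from the other 3 arrays. The same order of day 5 below the rest was seen for STARD4, a cytosolic sterol carrier, at 4973 with 4 miRNAs and 4583 with 2 miRNAs, against 4516 in the day 7 control and 3376 in the day 5 control. SCAP, the escort of the SREBP precursors, read 962 with 4 miRNAs and 1031 with 2 miRNAs, against 1582 in the day 7 control and 1380.3 in the day 5 control, and was lower on the miRNA arrays than on both controls, within 2-fold. On its 1 probe set the differences from day 5 were −0.51 and −0.41, less than the SD of a single probe set. From day 7 they were −0.70 and −0.60.

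The genes of the SREBPs themselves showed no 2-fold difference on the probe sets that stood for them. For SREBF1 the probe set 202308_at read 710.4 with 4 miRNAs and 574 with 2 miRNAs, against 758 in the day 7 control and 524 in the day 5 control. The dim 1558875_at of SREBF1 was under the array median on the 2-miRNA array and in the day 7 control and is not compared. For SREBF2 the probe set 201248_s_at read 551 with 4 miRNAs and 528 with 2 miRNAs, against 509.7 in the day 7 control and 630.3 in the day 5 control, a difference of −0.18 with 4 miRNAs and −0.24 with 2 miRNAs from day 5. Its second probe set, 201247_at, read 301 with 4 miRNAs and 456 with 2 miRNAs, against 648 in the day 7 control and 667 in the day 5 control, which put the 4-miRNA array at −1.07 from day 5 and −0.55 from the 2-miRNA array. The remaining one, 242748_at, gave 0.31 and 0.79 from day 5. The 3 probe sets of SREBF2 thus differed in sign against day 5, and a lower value with 4 miRNAs than with 2 miRNAs was seen on 2 of the 3.

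**Figure D2:**
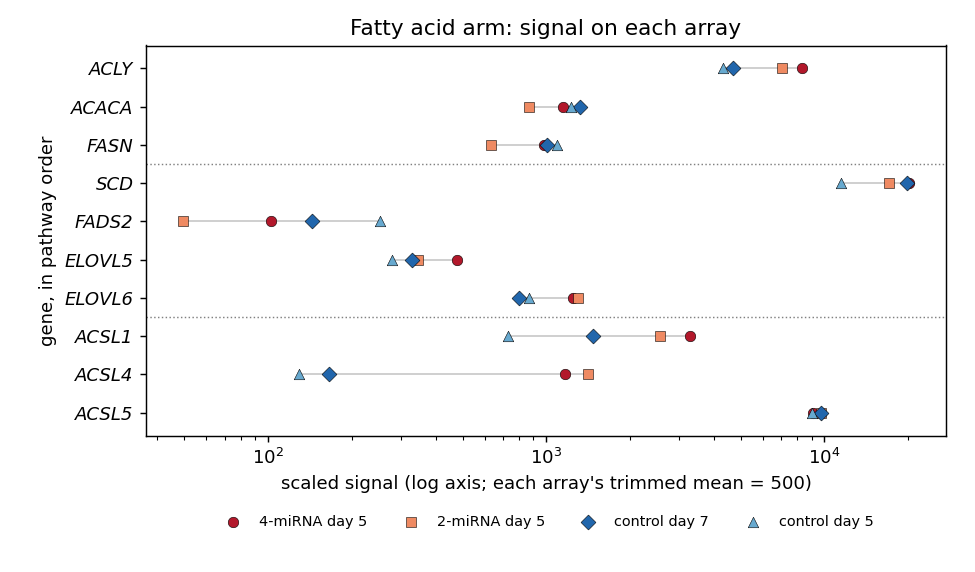
Scaled signal (log axis) of the 10 measured fatty acid arm genes on each of the 4 arrays, 1 point per array, with dotted lines between chain synthesis, desaturation or elongation, and acyl-CoA ligases. ACSL4 and ACSL1 (on its brighter probe set) are higher on both miRNA arrays than on both controls, and FADS2 is lowest on the 2-miRNA array.

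In the fatty acid arm 7 of 10 genes lay above day 5 on each miRNA array, with medians of 0.61 with 4 miRNAs and 0.42 with 2 miRNAs. Of all genes, 41.0% and 40.6% lay above day 5 with 4 and 2 miRNAs, with medians of −0.15 and −0.16. ACSL1 and ACSL4 were at least 2-fold higher and FADS2 at least 2-fold lower on both arrays, FADS2 on the 4-miRNA array only narrowly. That is 2 and 1 of 10 genes, beside the shares of all genes given for the sterol arm. Running-median centring put the 4-miRNA median at 0.72 and moved ACLY (1.02) and SCD (1.09) past 2-fold there, while it moved FADS2 (−0.92) inside 2-fold.

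The acyl-CoA ligases, which couple long-chain fatty acids to coenzyme A for use in lipids or oxidation, differed most. ACSL4 prefers arachidonate and other polyunsaturated fatty acids, and its probe set 202422_s_at read 1171 with 4 miRNAs and 1415 with 2 miRNAs, against 166 in the day 7 control and 129 in the day 5 control. Both miRNA arrays were far above both controls. Its differences from day 5 were 2.90 and 3.17 with 4 and 2 miRNAs, at ranks 17 and 10 from the highest of 12264 genes, and 0.30 on day 7. Against the day 7 control they were 2.60 and 2.87. The other 2 ACSL4 probe sets were too dim to pass the filter, at no more than 67.2 on any array, so this gene also rests on 1 probe set.

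ACSL1 had 2 probe sets that lay in the same direction. The first, 201963_at, read 3289 with 4 miRNAs and 2576 with 2 miRNAs, against 1477 in the day 7 control and 731 in the day 5 control. The second, 207275_s_at, read 1327 with 4 miRNAs and 856 with 2 miRNAs, against 897 in the day 7 control and 429 in the day 5 control. From day 5 the first differed by 2.12 with 4 miRNAs, 1.77 with 2 miRNAs and 0.98 on day 7, and the second by 1.56, 0.94 and 1.01 in the same order. From day 7 the first differed by 1.14 and 0.79 and the second by 0.55 and −0.06, the last of which puts the 2-miRNA array level with the day 7 control. ACSL5 was near 0 on its brightest probe set (0.01 and 0.11 with 4 and 2 miRNAs) and at 0.93 and 0.82 on the dimmer 218322_s_at.

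SCD, the desaturase that makes oleate, was measured by 4 probe sets, all above day 5 on the other 3 arrays. The brightest, 200832_s_at, read 20232 with 4 miRNAs and 17069 with 2 miRNAs, against 19909 in the day 7 control and 11508 in the day 5 control. Its differences from day 5 were 0.81 and 0.57 with 4 and 2 miRNAs and 0.79 on day 7. Without centring, the day 7 control was thus level with the 4-miRNA array (0.02). After running-median centring the differences from day 5 were 1.09, 0.86 and 0.75 in the same order, which put the 4-miRNA array above day 7. Over the 4 probe sets the differences without centring ran from 0.57 to 0.99 with 4 miRNAs, 0.20 to 0.71 with 2 miRNAs, and 0.49 to 0.79 on day 7.

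FADS2, the Δ6 desaturase of polyunsaturated fatty acids, was dim. Its probe set 202218_s_at read 102 with 4 miRNAs and 49.2 with 2 miRNAs, against 143 in the day 7 control and 253 in the day 5 control. Day 5 was highest and the 2-miRNA array lowest and under its array median, so the 2-miRNA array is given as at least 2.9-fold lower than day 5. The 4-miRNA array was −1.09 from day 5 and −0.39 from day 7, and from day 5 it was inside 2-fold after quantile normalization (−0.96), running-median centring (−0.92) and with 64 added (−0.93). ELOVL6, the elongase of palmitate, differed from day 5 by 0.52 and 0.57 with 4 and 2 miRNAs on 204256_at and by 0.68 and 0.58 on 210868_s_at. The controls of day 7 and day 5 were nearly level on both (−0.11 and −0.06). ELOVL5, an elongase of polyunsaturated chains, differed by 0.71 and 0.28 on 1 kept probe set.

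The enzymes that build the chain gave no common direction. ACLY makes cytosolic acetyl-CoA from citrate, and its probe set 201128_s_at read 8337 with 4 miRNAs and 7072 with 2 miRNAs, against 4696 in the day 7 control and 4309.6 in the day 5 control. That placed both miRNA arrays above both controls. On 210337_s_at it read 1929.6 with 4 miRNAs and 1857 with 2 miRNAs, against 2516 in the day 7 control and 3258 in the day 5 control, and on 201127_s_at 1064 with 4 miRNAs and 870.4 with 2 miRNAs, against 1040.2 in the day 7 control and 1689 in the day 5 control. On 210337_s_at both miRNA arrays were below both controls, and on 201127_s_at the 4-miRNA array was level with day 7, so no direction is given for ACLY. ACACA, the acetyl-CoA carboxylase, differed from day 5 by −0.09 with 4 miRNAs (0.01 after running-median centring) and −0.48 with 2 miRNAs. Its dimmer probe set, 214358_at, gave 0.08 and 0.07, so no direction is given for ACACA. FASN, the fatty acid synthase, read 980.1 with 4 miRNAs and 633 with 2 miRNAs, against 1009 in the day 7 control and 1091 in the day 5 control, so that the 2-miRNA array was the lowest of the 4. Its difference from day 5, on 1 kept probe set, was −0.76.

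**Figure D3:**
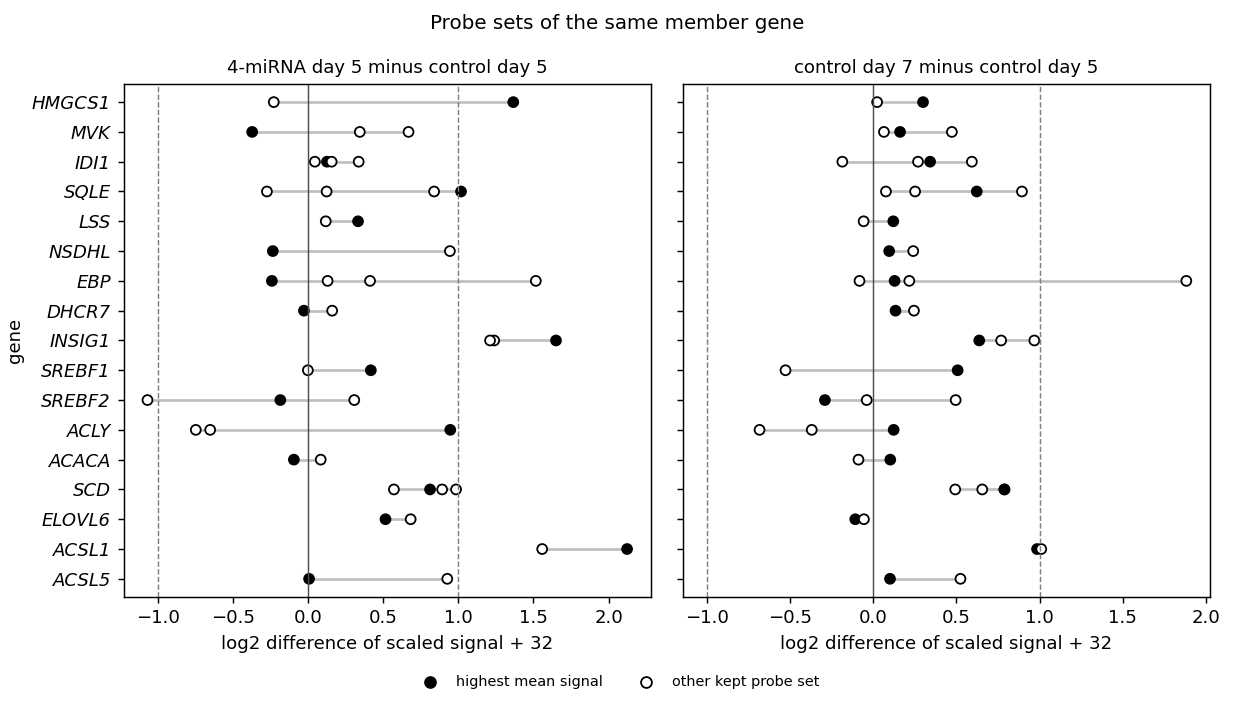
Log2 difference from the day 5 control of every kept probe set for the 17 members that have 2 or more, on the 4-miRNA array (left) and the day 7 control (right). Filled points mark the probe set with the highest mean signal, grey lines join probe sets of a gene and dashed lines mark 2-fold. INSIG1, SCD and ACSL1 lie on 1 side of 0 in both panels, while HMGCS1, NSDHL and ACLY span 0 on the left.

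Agreement between probe sets set the limit of what could be said per gene. Of 17 members with 2 or more kept probe sets, all probe sets lay on the same side of 0 for 7 with 4 miRNAs and 7 with 2 miRNAs against day 5, beside 48.0% and 48.2% of the 5896 genes with several kept probe sets. Between the miRNA arrays and between the controls they did so for 10 of 17, beside 45.4% and 45.1%. Of the 9 members at least 2-fold apart from day 5 on the 4-miRNA array, 5 had 1 kept probe set, 2 (INSIG1 and ACSL1) had several of the same sign and 2 (HMGCS1 and SQLE) had several of mixed sign. On the 2-miRNA array the same split of 8 members was 5, 2 and 1.

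**Figure D4:**
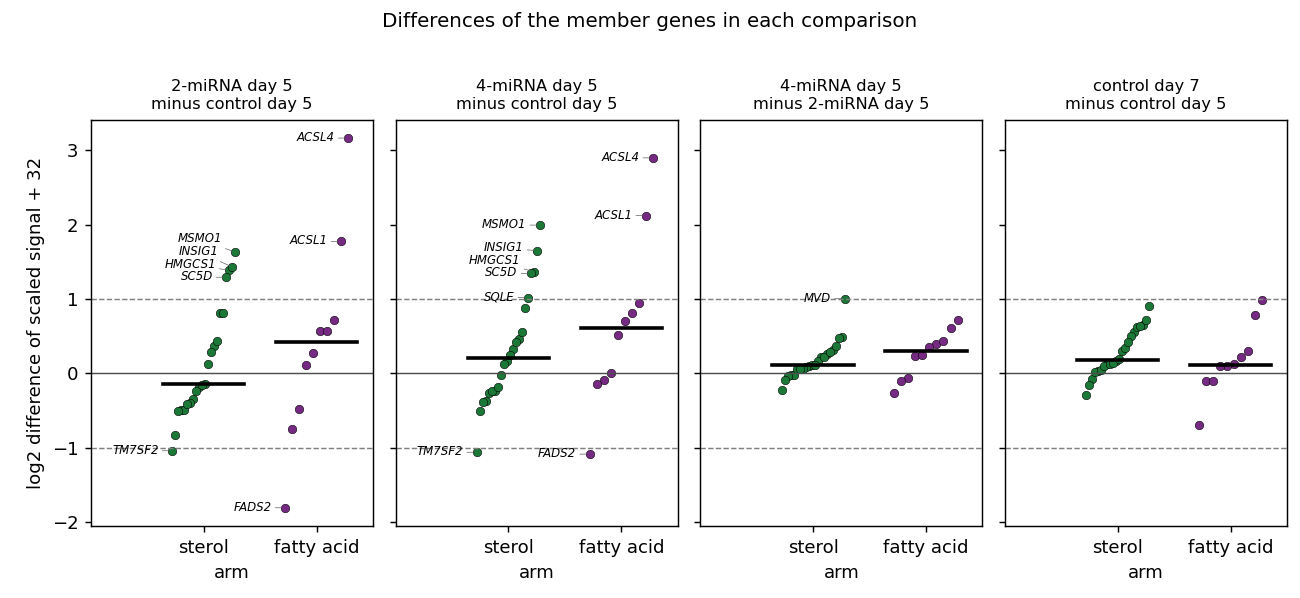
Log2 differences of scaled signal plus 32 for the 22 sterol and 10 fatty acid genes in 4 comparisons, 1 point per gene on its probe set with the highest mean, in rising order within an arm. Thick bars are medians and dashed lines mark 2-fold, and genes past that line are named: 9 and 8 against day 5 on the 4-miRNA and 2-miRNA arrays, MVD between the miRNA arrays, and none between the controls.

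The members were next compared between the controls, day 7 against day 5. On day 7 no member was at least 2-fold from day 5 (beside 3.35% of all genes higher, 2.41% lower and 5.76% either), but 19 of 22 sterol genes and 7 of 10 fatty acid genes lay above 0. Medians were 0.18 for the sterol arm and 0.11 for the fatty acid arm, beside −0.01 over all genes, of which 49.3% lay above 0. The members furthest above day 5 were ACSL1 (0.98, and 1.01 after quantile normalization), SC5D (0.90), SCD (0.79), INSIG2 (0.72), MSMO1 (0.65), INSIG1 (0.64) and SQLE (0.62). FADS2 was furthest below (−0.70), followed by SREBF2 (−0.29, but −0.04 on 201247_at and 0.50 on 242748_at). Of the genes named as above day 5, INSIG1, SCD, ACSL1 and SQLE had several kept probe sets, all above 0, and SC5D, INSIG2 and MSMO1 had 1 each.

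Because the miRNA arrays share the day 5 control with that comparison, each was also set against day 7. On the 4-miRNA array 11 of 22 sterol genes lay above day 7 with a median of 0.01, and 6 of 10 fatty acid genes with a median of 0.26. Of all genes, 39.1% lay above day 7 on that array, with a median of −0.15. HMGCS1 (on its brighter probe set), MSMO1, INSIG1, ACSL1 and ACSL4 remained at least 2-fold higher there and TM7SF2 at least 2-fold lower, which is 5 and 1 of 32 members beside 5.63% and 4.15% of all genes (9.78% either). INSIG1 missed that limit after quantile normalization. On the 2-miRNA array the sterol median was −0.29 and the fatty acid median 0.03, beside −0.16 over all genes, of which 38.9% lay above 0. HMGCS1 (on its brighter probe set, with −0.28 on the other) and ACSL4 were at least 2-fold higher than day 7, and MVD, TM7SF2 and FADS2 had differences of −1 or lower, 2 and 3 of 32 members beside 6.19% and 4.03% of all genes (10.2% either). FADS2 was under the median of the 2-miRNA array, and the fold it allows, at least 1.64-fold lower, does not reach 2-fold. SCD on the 2-miRNA array differed in sign by control on its brightest probe set (0.57 from day 5 and −0.22 from day 7). The other probe sets gave −0.07, 0.05 and −0.45 from day 7. After running-median centring the brightest was 0.86 above day 5 on the 2-miRNA array and 0.75 on day 7, so its sign against day 7 was not kept. Both miRNA arrays were nearer to day 7 than to day 5 for SC5D, INSIG1 and ACSL1, and also for MSMO1, SQLE, INSIG2, STARD4 and ACSL4 on their brightest probe sets. This holds for any gene whose day 7 signal lies between day 5 and both miRNA arrays.

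The 4-miRNA array was set against the 2-miRNA array, from which it differed by miR-33a and miR-210. Of 22 sterol genes 17 were higher with 4 miRNAs (median 0.11) and of 10 fatty acid genes 7 (median 0.30), beside 50.8% of all genes and a median of 0.00. After MVD, among members above the median of both arrays, those furthest above were FASN (0.61), LSS (0.49), DHCR7 (0.48) and ELOVL5 (0.43). FADS2, under the median of the 2-miRNA array, was at least 1.17-fold higher with 4 miRNAs. FASN stood at 980.1 with 4 miRNAs and 633 with 2 miRNAs, and LSS at 2448 with 4 miRNAs and 1737 with 2 miRNAs. FASN and ELOVL5 rest on 1 kept probe set each. The 2 kept probe sets of DHCR7 gave 0.48 and 0.27, the 2 of LSS 0.49 and 0.18, the 3 of INSIG1 0.22, 0.20 and 0.70, and the 4 of SCD between 0.24 and 0.37. These compare with a probe set SD of 0.18 in this pair of arrays. Differences below 0 were small: ACSL4 (−0.27) and MVK (−0.22) were the lowest. The other kept probe sets of MVK gave 0.52 and 0.21, so no direction is given for it. The labels do not say whether 15 pmol covered a whole mix, so the added miRNAs and a smaller amount of miR-338-3p and miR-451 cannot be told apart here.

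A further list of 32 genes of sterol and fatty acid handling, 29 of which were measured, was used as a neighbour of the members. On the 4-miRNA array 12 of 29 lay above day 5 with a median of −0.16, and on the 2-miRNA array 8 of 29 with a median of −0.17, both close to the median of all genes. Of all genes, 41.0% and 40.6% lay above day 5 on these arrays, in the same order. SOAT1, which esterifies cholesterol for storage, was at least 2.41-fold higher with 4 miRNAs and at least 2.40-fold higher with 2 miRNAs, with signals of 239.7 and 238.5, against 51.0 (day 7) and 53.0 (day 5) in the controls. ABCG1, a sterol exporter, was at least 2.07-fold higher with 4 miRNAs than on day 5, at 205 with 4 miRNAs and 112 with 2 miRNAs, against 148 and 59.7 on the day 7 and day 5 controls. No gene of this list was at least 2-fold lower against day 5, where 6.7% and 6.37% of all genes were with 4 and 2 miRNAs. Those at least 2-fold higher were 6.9% and 3.4% of the list, beside 8.03% and 8.11% of all genes. Between the miRNA arrays 22 of 29 lay above 0 with a median of 0.10, and between the controls 14 of 29 with a median of −0.01.

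Promoter letters are shown for 4 members, chosen by their values above. INSIG1, MSMO1 and SC5D were higher together on both miRNA arrays and on day 7 than on day 5. MVD was the single member at least 2-fold apart between the miRNA arrays, and only narrowly (1.003 on 1 dim probe set). Each promoter runs from 250 bases before the transcription start to 50 after it in RefSeq, 5′ to 3′ on the gene's strand. Capitals mark matches, on either strand and overlapping where they touch, to CACCCCA (part of the sterol regulatory element that SREBPs bind), CCAAT (the box bound by NF-Y, a partner of SREBPs) and GGGCGG (the GC box bound by Sp1). INSIG1 is at chr7:155297628-155297927 on the plus strand and holds 1 CCAAT and 6 GGGCGG. MSMO1 at chr4:165327419-165327718 on the plus strand holds 4 CCAAT and 2 GGGCGG. SC5D at chr11:121292521-121292820 on the plus strand, the first of 2 promoters, holds 1 of each of these. MVD at chr16:88663042-88663341 on the minus strand holds 1 CACCCCA, 3 CCAAT and 1 GGGCGG. All positions are on GRCh38.p14.
INSIG1: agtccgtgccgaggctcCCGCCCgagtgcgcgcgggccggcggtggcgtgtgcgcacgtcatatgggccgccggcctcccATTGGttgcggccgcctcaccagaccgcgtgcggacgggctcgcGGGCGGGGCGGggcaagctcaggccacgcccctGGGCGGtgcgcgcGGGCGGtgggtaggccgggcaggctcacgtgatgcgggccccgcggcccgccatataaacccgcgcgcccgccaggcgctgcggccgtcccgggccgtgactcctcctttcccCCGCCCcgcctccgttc
MSMO1: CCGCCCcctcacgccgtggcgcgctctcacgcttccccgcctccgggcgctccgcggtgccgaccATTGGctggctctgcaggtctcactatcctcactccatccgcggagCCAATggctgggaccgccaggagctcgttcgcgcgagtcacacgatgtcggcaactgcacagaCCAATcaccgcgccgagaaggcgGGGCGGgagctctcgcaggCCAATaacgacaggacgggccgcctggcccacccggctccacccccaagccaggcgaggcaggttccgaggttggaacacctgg
SC5D: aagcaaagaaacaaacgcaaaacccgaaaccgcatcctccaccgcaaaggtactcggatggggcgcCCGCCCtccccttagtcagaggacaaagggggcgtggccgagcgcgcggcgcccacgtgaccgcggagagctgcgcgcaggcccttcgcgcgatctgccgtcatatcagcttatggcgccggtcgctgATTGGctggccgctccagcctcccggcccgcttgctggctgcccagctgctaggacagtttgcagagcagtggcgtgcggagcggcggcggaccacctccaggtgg
MVD: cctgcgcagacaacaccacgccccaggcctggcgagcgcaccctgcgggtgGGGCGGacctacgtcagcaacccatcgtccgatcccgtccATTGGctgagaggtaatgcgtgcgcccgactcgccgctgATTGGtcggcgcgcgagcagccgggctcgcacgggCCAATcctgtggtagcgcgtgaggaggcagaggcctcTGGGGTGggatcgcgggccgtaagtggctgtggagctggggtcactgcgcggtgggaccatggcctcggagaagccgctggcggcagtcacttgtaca

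RefSeq promoters were matched for 32 of the 36 symbols, 47 promoters in all. CCAAT was found in 57.4% of them, beside 34.6% of all 35116 promoters of the same length and 34.7% of the 22199 of protein-coding genes. GGGCGG was found in 78.7%, beside 45.0% of all promoters and 56.3% of protein-coding ones. CACCCCA was found in 6 of 47 (12.8%), those of ACLY, ACSL1, EBP, MVD, MVK and SREBF2, beside 8.08% of all promoters and 8.25% of protein-coding ones. These matches describe the letters of the windows and were not tested for use in T84 cells. Members on both sides of 0 held CCAAT: it was present for INSIG1, MSMO1, SC5D and ACSL1 and also for TM7SF2 and FADS2, and was not found in the windows of ACSL4 or SCAP.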

How the data were processed

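T84 messenger RNA was measured on 4 arrays, 1 per group. Each array has 54675 probe sets, whose deposited values are linear intensities that the authors made with MAS5, per the submitters' processing notes. No MAS5 version or scaling target was given in the sources used here. One array per group limits the precision. Signals were scaled to a mean of 500 after trimming 2% at each end, and log2 was taken of the deposited values so scaled plus 32. Probe sets passed the filter if their mean log2 was no lower than the median over all probe sets, or if any array had them at its 75th percentile or above. A gene was read from its probe set with the highest mean. Symbols are those of the platform annotation: 41097 probe sets carry 1 symbol (41043 found by ID among the RefSeq genes of GRCh38.p14), 1801 several, and 11777 are unnamed here. Running medians spanned 1001 probe sets. The probe set SD used the brightest pair of each gene at a mean log2 of 9 or more. Where a named gene was under the array median on 1 side, its fold is a minimum, found by putting that array's median in place of the dim value. Every measured member is named, and other pathway genes only where at least 2-fold apart. Alternatives were quantile normalization, running-median centring, 16 or 64 in place of 32, no filter, the median over probe sets, and the day 7 control. Members, gene lists and comparisons were chosen with earlier results of these data known. Scripts were tested on simulated data, and ran in Python 3.11.15 with numpy 2.4.6, pandas 2.3.3 and matplotlib 3.10.9.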

Additional observations from a re-analysis of the deposited data

How the results depend on the processing

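Values were recomputed with quantile normalization, running-median centring, 16 or 64 added before log2, no filter, the median over probe sets and, for the miRNA arrays, the day 7 control. The sterol median of the 2-miRNA array turned from −0.15 to 0.12 with the median over probe sets and was −0.29 against day 7; its fatty acid median was 0.034 and its count of members at least 2-fold apart 5 (8 against day 5) against day 7. For the 4-miRNA array against day 7 the sterol median was 0.0086 and the fatty acid median 0.26. Over all genes the median against day 7 was −0.16 with 2 miRNAs and −0.15 with 4 miRNAs. The day 7 minus day 5 sterol median was 0.11 with the median over probe sets. The count between the miRNA arrays was 0 with 64 added, and that between the controls was 1 with quantile normalization. The cause of these shifts was not tested. For the other medians and counts, shifts stayed below the probe set SD divided by the square root of the number of members, or within 1.5 times the main count. The number of members apart from day 5 on the 4-miRNA array, 7 higher and 2 lower, became 9 and 0 with running-median centring, 7 and 0 with 64 added, 6 and 1 with quantile normalization and 5 and 2 with the median over probe sets, so both lower calls (TM7SF2 and FADS2) were lost under the first 2 of these. On the 2-miRNA array 6 and 2 became 6 and 1 with running-median centring or 64 added (TM7SF2 lost) and 4 and 2 with the median over probe sets. The median of all genes against day 5 moved from −0.16 to −0.06 (2 miRNAs) and from −0.15 to −0.04 (4 miRNAs) with running-median centring, and the split of all genes at least 2-fold higher and lower from 995 and 781 to 1156 and 576 (2 miRNAs) and from 985 and 822 to 1147 and 575 (4 miRNAs). With no filter those counts were 1611 and 1983 (2 miRNAs) and 1608 and 1977 (4 miRNAs), between the miRNA arrays 701 and 705 (128 and 163 filtered) and between the controls 1485 and 1331 (411 and 296 filtered). No member at least 2-fold apart changed sign under any of these settings. No paired analysis was possible because each group had 1 array. Signal of MVD and FADS2 near the array median limits their folds.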
